A study of Homo sapiens with 24 samples.

Results

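The 6 libraries described here are the empty vector controls of SH-SY5Y, a human neuroblastoma cell line of sympathoadrenal origin, out of 24 libraries in the series. They were taken by label, 3 from the control for NDUFS6 knockdown (KDNC) and 3 from the control for NDUFS6 overexpression (OENC), and no measured value entered the choice. Both groups are stable lentiviral lines of SH-SY5Y that carry a vector without an NDUFS6 insert, one matched to a short hairpin RNA and the other to the full-length NDUFS6 coding sequence, and both, like all lines of the series, were infected for 16 hours with polybrene at 5 μg/mL and selected with puromycin at 2 μg/mL from 48 hours after infection. The series also holds SH-SY5Y with the hairpin (KD) or the coding sequence (OE) against NDUFS6, a complex I subunit, and the same 4 arms in SK-N-BE(2), a neuroblastoma line with amplified MYCN, with 3 libraries each. By label the 3 libraries of a group are biological replicates, but nothing says that each had its own infection. P-values therefore reflect only the spread among libraries within a group, which could be technical. In the main test that spread was pooled over the groups of all 24 libraries. The protocol was the same for both groups, the vector differed between them, and the labels do not say whether they were infected together or how long each was cultured, so vector and culture history cannot be told apart.

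Empty vector lines are meant to carry what infection and selection do to a cell, so that a construct can be read against them. SH-SY5Y was subcloned from a tumour line that holds cells of more than one state. Neuroblastoma cells are known to move between an adrenergic state, held by transcription factors such as GATA3 and ISL1 and marked by catecholamine enzymes and secretory granules, and a mesenchymal state, marked by vimentin, fibronectin, NOTCH and YAP and by matrix and antigen presentation genes. The comparison measures how far 2 control lines of SH-SY5Y differ when neither vector targets NDUFS6.

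Values are FPKM, which scale fragments by transcript length and by the mapped total. A log2 difference is KDNC minus OENC on the log2(FPKM + 1) scale, where the added 1 shrinks the difference of low genes. Called means an adjusted p (Benjamini-Hochberg) under 0.05 in limma, two-sided, fitted on all 24 libraries, and ± marks the SD within a group (n = 3). The 6 libraries summed to between 255596 and 259548 FPKM, and between 13604 and 14018 genes reached 1 FPKM in each. Read depth is unknown, because the table held no counts. The sympathoadrenal label held for 12 of 13 markers: HAND2 lay between 267.5 and 294 FPKM, GATA3 between 64.02 and 84.72 and STMN2 between 328.8 and 480.1 over the 6 libraries. TH, which encodes the first enzyme of catecholamine synthesis, was near absent at 0.0503 to 0.2782 FPKM. NDUFS6 itself (ENSG00000145494, chromosome 5, 1801400 to 1816605, hg38) stood at 11.2, 11.1 and 12.1 FPKM in KDNC and at 10.2, 11.4 and 11.2 in OENC, so the libraries overlapped (log2 difference 0.059, SE 0.118, limma adjusted p = 0.728). It was 4.02 ± 0.939 in KD and 208 ± 7.74 in OE.

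Of 14073 genes with at least 1 FPKM in 3 or more of the 6 libraries, limma called 2700 higher in KDNC (19.2%) and 2785 lower (19.8%). The median log2 difference over all genes was -0.011, the median absolute difference was 0.16 and 95% of absolute differences were at or under 0.646. By at least 2-fold, 188 genes were higher (1.34%) and 42 lower (0.298%), and in 0 of these did the 3 libraries of one control overlap the 3 of the other. Without regard to size, 3802 genes had all KDNC libraries above all OENC libraries and 4066 the reverse. A gene under 1 FPKM in every library of one control passed the filter only through the other control, so the filter set its direction. Among genes named below, CRIM1, YAP1, NOTCH1, TGFB2, ITGA5, BST2, IFITM3, BHLHE40 and CD68 passed only through KDNC, and GFRA3 and CBLN4 only through OENC. The list counts below include such genes. The size rule has no natural gap: AC027228.2, lower, stood just inside it and HSPG2, the matrix proteoglycan perlecan, higher, just outside it, both at a size of 1 on the log2 scale when rounded. The share called lower grew with the level of the gene, from 11.2% among the genes of lowest mean level to 30.6% among those of highest (4 equal bins), while the share called higher went from 22.6% to 14.8%. Protein-coding genes made up 175 of the 188 and 23 of the 42, beside 11610 of all 14073.

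**Figure D1:**
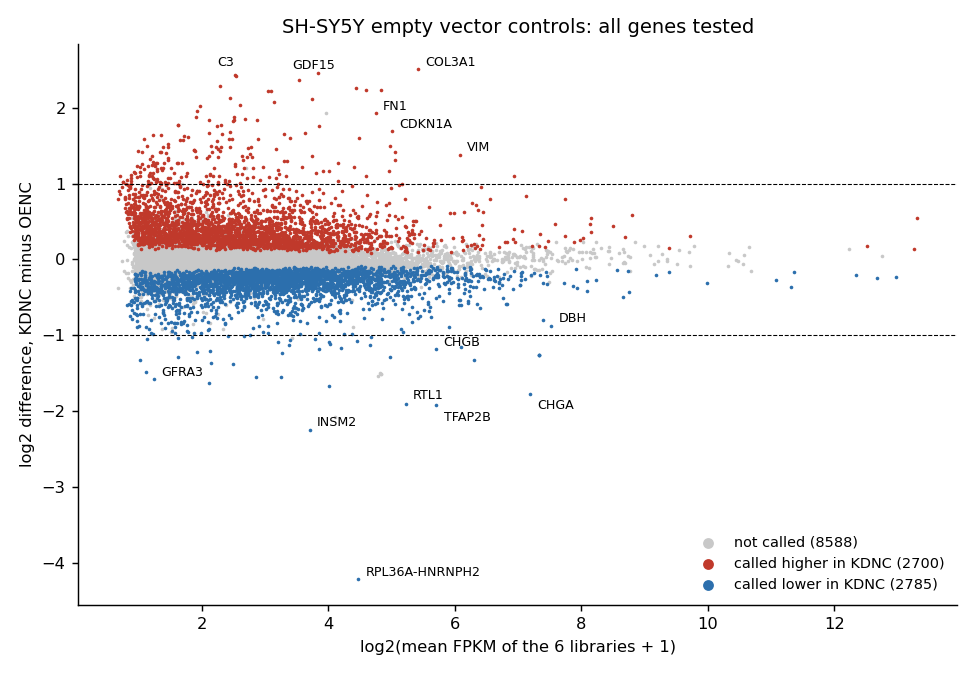
Log2 difference between the 2 SH-SY5Y empty vector controls (y axis, KDNC minus OENC) against the log2 mean FPKM + 1 of the 6 libraries (x axis), 1 point per gene tested. Red and blue points are the 2700 genes called higher and the 2785 called lower, and dashed lines mark a 2-fold difference, past which more genes lie above (188) than below (42).

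The distance between 2 libraries was taken as the median absolute log2 difference over the 14073 genes. It was 0.0686 to 0.0702 between KDNC libraries and 0.0723 to 0.0741 between OENC libraries. Between a KDNC and an OENC library it was 0.168 to 0.185, so the ranges do not overlap. The distance between OE and OENC libraries was 0.164 to 0.180 and overlapped that between the 2 controls. OE and OENC differ by the NDUFS6 coding sequence and are separate lines, and the 2 cannot be told apart. Libraries with the hairpin were farther off, at 0.267 to 0.281 from KDNC and 0.281 to 0.295 from OENC. Between OE and KDNC it was 0.259 to 0.277, and between KD and OE 0.309 to 0.322.

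**Figure D2:**
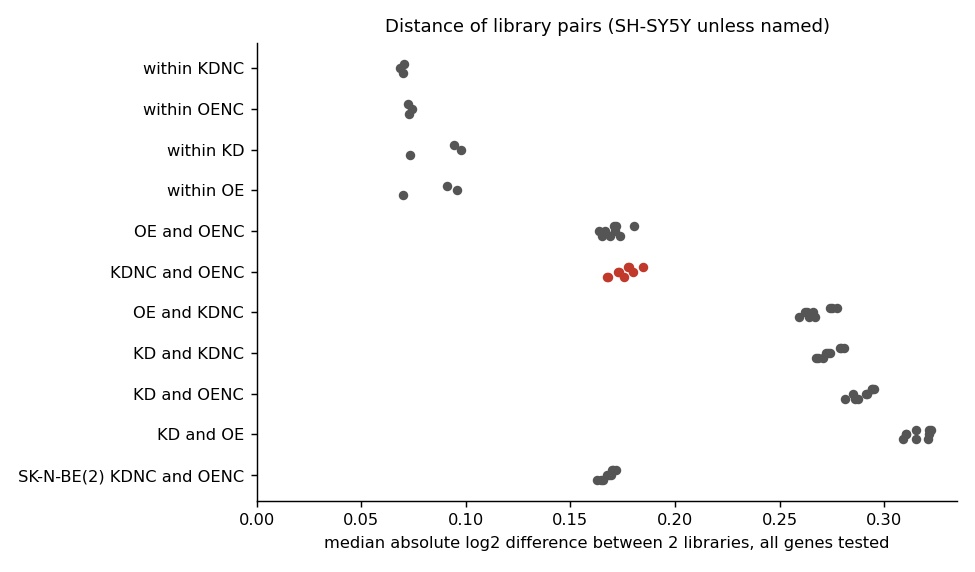
Median absolute log2 difference over all genes tested (x axis) for each pair of libraries, 1 point per pair, grouped by the groups the 2 libraries come from (y axis), with the pairs of 1 KDNC and 1 OENC library in red. Pairs of the 2 empty vector controls of SH-SY5Y lie at 0.168 to 0.185, about where the pairs of OE and OENC lie (0.164 to 0.180) and above the pairs within KDNC and OENC.

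The number of 2-fold calls for a construct depended on which control it was set against. For KD it was 927 genes (6.59%) against KDNC and 1321 (9.39%) against OENC. For OE it was 57 (0.405%) against OENC, its own control, and 582 (4.14%) against KDNC. These contrasts share libraries with each other and with the control difference, so their counts stand side by side and are not compared further.

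The 12 largest differences toward KDNC lay in genes of several kinds. CYR61 (chromosome 1, 85580761 to 85583962, hg38), a matricellular protein that YAP and TEAD switch on, stood at 22.9, 22.7 and 24.1 FPKM in KDNC and at 3.12, 4.09 and 3.13 in OENC, a 6.74-fold higher mean (log2 difference 2.45, SE 0.129, limma adjusted p = 7.56e-12). GDF15 (chromosome 19, 18374731 to 18389176), a cytokine secreted under stress, stood at 19.7, 17.2 and 18.4 against 2.55, 3.24 and 2.51 FPKM (log2 difference 2.37, SE 0.176, limma adjusted p = 1.59e-09). In both genes the 3 KDNC libraries lay close together and several-fold above every OENC library. The 12 were drawn only from genes whose KDNC and OENC libraries do not overlap, so the lack of overlap was set by the choice. Tenascin-C (TNC), a matrix glycoprotein of developing and injured tissue, stood at 39.1, 39.5 and 38.1 against 7.48, 7.398 and 7.61 FPKM (log2 difference 2.23). DDIT4, an inhibitor of the growth kinase complex mTORC1, stood at 35.3, 33.5 and 35.99 against 5.88, 7.09 and 6.499 FPKM (log2 difference 2.26). C3, the central complement component, and MME, the membrane peptidase neprilysin, were near 1 FPKM in OENC and at 8.71 ± 0.467 and 8.84 ± 0.0831 in KDNC (log2 differences 2.43 and 2.41). Among the 12 largest differences were also COL3A1, BHLHE40, COL5A1, S100A11 and ANGPTL4, at 2.505, 2.29, 2.22, 2.22 and 2.13. Over the 12 the limma adjusted p ran from 1.61e-18 to 1.59e-09.

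The 12 largest differences toward OENC included 2 transcription factors, a granule protein and several non-coding genes. INSM2 (chromosome 14, 35534042 to 35537054, hg38), a zinc finger factor of neuroendocrine cells, stood at 3.62, 3.54 and 3.42 FPKM in KDNC and at 19.6, 22.03 and 20.1 in OENC, a 5.83-fold lower mean (log2 difference -2.25, SE 0.0886, limma adjusted p = 1.24e-13). TFAP2B (chromosome 6, 50818723 to 50847613), a transcription factor of the sympathetic lineage, stood at 20.4, 21.2 and 21.2 against 80.8, 81.97 and 82.5 FPKM (log2 difference -1.92, SE 0.0753, limma adjusted p = 1.24e-13). CHGA (chromosome 14, 92923080 to 92935293), the granule protein chromogranin A, stood at 63.1, 67.4 and 64.5 against 217, 232 and 228 FPKM (log2 difference -1.78, SE 0.0933, limma adjusted p = 7.23e-12). These 12 were also drawn only from genes without overlap, so the separation of their OENC and KDNC libraries was set by the choice. RTL1, an imprinted gene derived from a retrotransposon, stood at 13.4, 15.4 and 15.3 against 57.2, 58.1 and 58.95 FPKM (-1.91). GFRA3, the receptor subunit for artemin, and CBLN4, a secreted synapse organiser, were at 0.1804 ± 0.00715 and 0.141 ± 0.0175 in KDNC and at 2.56 ± 0.525 and 2.202 ± 0.258 in OENC (-1.58 and -1.49). TMEM229A and the non-coding genes AC078906.1, AL133163.3 and AL392083.1 were also among the 12, at -1.55, -1.63, -1.55 and -1.38. The largest of all, RPL36A-HNRNPH2 at -4.22 (limma adjusted p = 0.00838), is a readthrough transcript whose exons belong to other genes, and RN7SL1 (-1.68) is a signal recognition particle RNA with near-identical copies. RN7SL1 was not called without OENC replicate 2, which held 43.51 FPKM against 13.24 and 15.82 in the other OENC libraries. Both values are uncertain, as are those of BCL3, CD68, COL3A1, DDIT3, DKC1, FZD8, HLA-B, HLA-C, HOXD3, HOXD10, HOXD11, IFITM2, L1CAM, MMP2, MT-ATP6, MT-CO3, NDUFB2, NDUFS3, NFE2L2, PFKFB4, RPSA, SLC6A2 and TGFB2, which share exon sequence with another gene in the annotation.

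**Figure D3:**
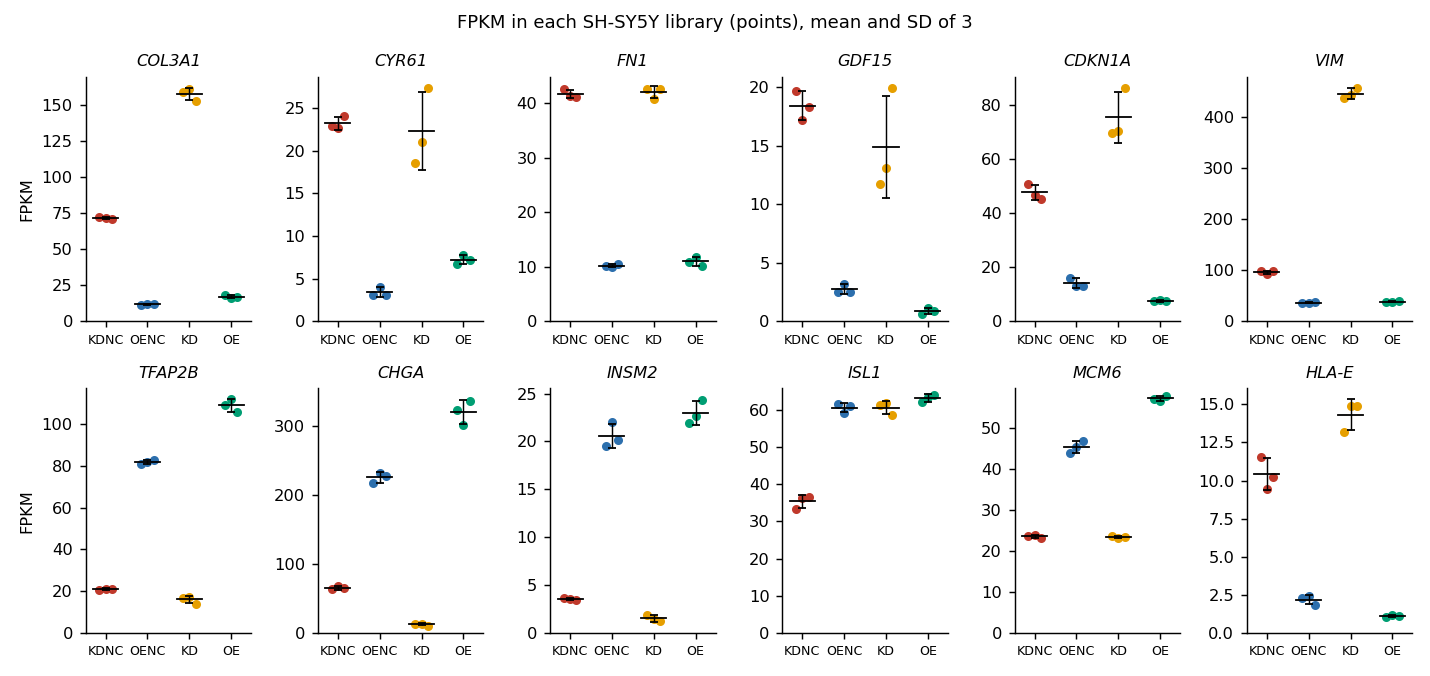
FPKM (y axis, starting at 0) of 12 genes in each SH-SY5Y library, 1 point per library, with the mean (long line) and SD (short bars) of the 3 libraries of each group: the empty vector controls KDNC and OENC, knockdown (KD) and overexpression (OE). In all 12 genes the KDNC and OENC points do not overlap. For COL3A1, CYR61, GDF15, TFAP2B, CHGA and INSM2 the rule for the largest differences required this. COL3A1, CYR61, FN1, GDF15, CDKN1A, VIM and HLA-E are higher in KDNC, and TFAP2B, CHGA, INSM2, ISL1 and MCM6 lower.

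Promoters of 5 genes are shown so that the core elements counted below can be read in place. GDF15 (chr19:18385908-18386157) and ANGPTL4 (chr19:8363905-8364154), an inhibitor of lipoprotein lipase, were higher in KDNC, and INSM2 (chr14:35533914-35534163), CHGA (chr14:92922900-92923149) and MCM6 (chr2:135876444-135876693), a subunit of the replicative helicase, were lower. Each line gives the 250 bases before the annotated start, 5′ to 3′ on the strand of the gene (minus for MCM6 and plus for the others), from RefSeq (GRCh38.p14). The gene positions given above are from GENCODE, whose starts can differ. The GDF15 stretch lies inside its GENCODE gene, and those of INSM2 and CHGA overlap theirs. Capitals mark the matches of the 6 motifs searched on both strands, each named here with the factor known to bind it. They were TATAAA for the TATA-binding protein, TGACGT for CREB, TGAGTCA for AP-1, CACGTG for MYC and other E-box factors, CATTCC for TEAD and CCAAT for NF-Y.
GDF15: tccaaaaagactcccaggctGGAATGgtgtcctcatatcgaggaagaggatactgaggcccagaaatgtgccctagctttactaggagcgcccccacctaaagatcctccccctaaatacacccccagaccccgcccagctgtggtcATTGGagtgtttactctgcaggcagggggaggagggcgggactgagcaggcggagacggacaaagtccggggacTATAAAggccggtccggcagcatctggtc
ANGPTL4: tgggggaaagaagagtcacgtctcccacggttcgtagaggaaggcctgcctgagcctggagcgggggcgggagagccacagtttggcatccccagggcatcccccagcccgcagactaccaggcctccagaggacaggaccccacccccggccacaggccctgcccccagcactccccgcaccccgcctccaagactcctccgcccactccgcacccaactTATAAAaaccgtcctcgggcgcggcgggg
INSM2: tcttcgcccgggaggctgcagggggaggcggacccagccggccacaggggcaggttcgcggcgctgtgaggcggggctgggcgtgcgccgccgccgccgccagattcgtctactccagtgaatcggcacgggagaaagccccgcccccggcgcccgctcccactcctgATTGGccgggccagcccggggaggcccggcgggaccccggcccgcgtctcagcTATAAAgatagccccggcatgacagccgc
CHGA: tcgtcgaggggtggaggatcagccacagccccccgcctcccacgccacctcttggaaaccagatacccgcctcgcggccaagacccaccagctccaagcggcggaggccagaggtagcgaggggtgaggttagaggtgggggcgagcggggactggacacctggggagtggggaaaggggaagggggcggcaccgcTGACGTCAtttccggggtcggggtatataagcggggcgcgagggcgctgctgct
MCM6: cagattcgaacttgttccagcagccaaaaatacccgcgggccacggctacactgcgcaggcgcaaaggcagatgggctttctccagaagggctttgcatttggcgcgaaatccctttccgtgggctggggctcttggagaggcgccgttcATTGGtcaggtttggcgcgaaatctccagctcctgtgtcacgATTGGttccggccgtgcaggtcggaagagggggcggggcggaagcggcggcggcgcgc

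GDF15, ANGPTL4 and INSM2, which went in different directions, each had TATAAA from 29 to 24 bases before the start. In CHGA the capitals are 2 overlapping copies of TGACGT, one on each strand, and in MCM6 they are 2 copies of CCAAT on the other strand, read here as ATTGG. A promoter was found for 136 of the 188 genes at least 2-fold higher, 20 of the 42 lower and 10074 of all 14073, in windows of 300 bases that run from 250 before to 50 after the start. TATAAA was present in 14% of the higher genes (19 of 136), 20% of the lower (4 of 20) and 5.11% of all. TGAGTCA was present in 6.62%, 5% and 2.52%, and CATTCC in 14.7%, 5% and 10.2%. CACGTG was present in 4.41%, 0% and 10.2%, TGACGT in 8.82%, 10% and 12.2% and CCAAT in 30.1%, 35% and 37.4%. The shares of all promoters are given for scale and no test was made.

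Most genes of the extracellular matrix lists were higher in KDNC. All 12 tested collagen genes were called higher (median log2 difference 0.85), where 19.2% of all genes were called higher and the median was -0.011. COL3A1 (ENSG00000168542), the fibrillar collagen of soft tissue, was at 72.5, 71.8 and 70.8 FPKM in KDNC and 11.6, 11.8 and 11.97 in OENC. COL1A1, another fibrillar collagen, was at 9.06 ± 0.7004 against 2.59 ± 0.237 (1.49), and COL4A2 of basement membranes at 12.7 ± 0.0919 against 6.202 ± 0.0876 (0.93). The range of the 12 ran from 0.28 for COL5A2 to 2.505 for COL3A1. The list has 29 collagen genes, and those that did not pass the filter on low values are outside these counts, as are the low members of the other lists. Of matrix proteoglycans and matricellular proteins, 28 of 35 were higher and 3 lower (median 0.84). SPARC, a collagen-binding protein, was at 46.1, 47.1 and 46.3 against 17.6, 18.6 and 18.04 FPKM (1.32), and fibronectin (FN1) at 42.5, 41.3 and 41.1 against 10.2, 10.04 and 10.5 (1.93). The proteoglycans BGN and SDC4 were at 1.44 and 1.37. The 3 lower members were TNR, SDC2 and SDC1, of which TNR, a tenascin of the nervous system, was at -0.74.

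Matrix receptors and proteases also had more higher than lower members. Of integrins and cadherins, 12 of 15 were higher and 0 lower (median 0.43). ITGA5, the integrin subunit that binds fibronectin, went from 0.4302 ± 0.0997 FPKM in OENC to 3.103 ± 0.0615 in KDNC (1.52), and its partner ITGB1 from 71.5 ± 1.33 to 98.5 ± 2.31 (0.46). ITGA3 and ITGB5 were at 1.10 and 0.85, while N-cadherin (CDH2) was at 0.0049 and was not called. Of matrix metalloproteinases and inhibitors, 16 of 24 were higher and 3 lower (median 0.62). The list spans enzymes and their inhibitors, and both were among the higher members: MMP2, which degrades basement membrane collagen, was at 0.95, and the inhibitors TIMP1 and TIMP3 at 1.29 and 1.47. ADAM12, a membrane protease, was lower, at 6.897, 7.15 and 6.67 against 14.3, 14.6 and 15.2 FPKM (-0.99).

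YAP and TEAD, the transcription pair of the Hippo pathway, and TGF-beta are both known to drive matrix genes. Of the YAP and TEAD targets, 10 of 15 were higher and 2 lower (median 0.68). Beside CYR61 they included CRIM1 at 5.27, 5.10 and 5.46 against 0.571, 0.455 and 0.627 FPKM (2.02) and ANKRD1 (1.25). CRIM1 passed the filter only through KDNC. Among genes with a mean of at least 5 FPKM, fewer members are tested, and 1 was higher and 1 lower. Over all genes at that filter, 1257 were called higher and 1921 lower. The numbers tested at that filter are not given here, so these counts cannot be read as shares. Of TGF-beta and BMP signalling, 14 of 26 were higher and 4 lower (median 0.25). The ligands TGFB1 and TGFB2 were at 6.305 ± 0.399 and 3.78 ± 0.309 FPKM in KDNC and at 1.63 ± 0.224 and 0.397 ± 0.0935 in OENC (1.48 and 1.77). GREM1, a secreted BMP antagonist, was at 1.27, the receptor TGFBR2 at 0.84 and the BMP receptor BMPR1B at -1.02.

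The lists of neuroblastoma identity went opposite ways. Of the mesenchymal identity list, 18 of 23 were called higher and 1 lower (median 0.74). Vimentin (VIM), the intermediate filament of mesenchymal cells, was at 97.7, 93.2 and 98.2 FPKM in KDNC and 35.5, 36.6 and 37.3 in OENC (log2 difference 1.38, SE 0.0587, limma adjusted p = 3.71e-13). YAP1 and NOTCH1 were low genes that went from 0.505 ± 0.0775 and 0.552 ± 0.0833 FPKM in OENC to 2.16 ± 0.0464 and 2.58 ± 0.238 in KDNC (1.07 and 1.21). Both passed the filter only through KDNC. The surface markers CD44 and NT5E were at 1.23 and 1.01. TWIST1, ZEB1, TEAD1 and TEAD4, at 0.036, 0.09, 0.07 and 0.039, were not called. When the test was limited to genes with a mean of 5 FPKM or more, 6 members of this list were higher and 0 lower. Fewer members are tested at that filter, where 1257 of all genes were called higher and 1921 lower. How many were tested is not given here, so the counts are not shares.

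Of the adrenergic identity list, 13 of 20 were called lower, where 19.8% of all genes were, and 2 higher (median -0.37). ISL1, a LIM homeobox factor of sympathetic neurons, was at 33.4, 36.4 and 36.5 FPKM in KDNC and 61.6, 59.3 and 61.1 in OENC (log2 difference -0.76, SE 0.0475, limma adjusted p = 1e-10). GATA3, DACH1 and HAND1 were at -0.35, -0.72 and -0.63. The members did not go one way: PHOX2A, a homeobox factor, was higher at 0.34, TBX2 was higher at 0.53, and HAND2 (0.098) was not called.

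Genes of catecholamine synthesis and transport were lower in 8 of 11 and higher in 0 (median -0.26). DBH, which turns dopamine into noradrenaline, was at 125, 135 and 128 FPKM in KDNC and 234, 242 and 236 in OENC (log2 difference -0.87, SE 0.0726, limma adjusted p = 7.67e-09). DDC, which makes dopamine, was at 23.6 ± 0.401 against 47.02 ± 1.22 (-0.96), and the noradrenaline transporter SLC6A2 at 11.8 ± 0.604 against 24.3 ± 1.25 (-0.98). The means of these 3 genes were 1.84-, 1.99- and 2.05-fold higher in OENC, and the libraries did not overlap. GCH1, which makes the cofactor of tyrosine hydroxylase, was at -0.77.

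Granule proteins were mixed, with 4 of 13 higher and 4 lower (median 0.032). The chromogranins CHGA (-1.78) and CHGB (30.7, 30.1 and 31.4 against 71.1, 73.9 and 69.02 FPKM, -1.19) and the granin SCG3 (-0.52) were lower. VIP, the vasoactive intestinal peptide, was higher, at 165, 162 and 169 against 78.9, 74.6 and 76.8 FPKM (log2 difference 1.10, SE 0.112, limma adjusted p = 1.61e-07), and so were VGF (0.84) and the amidating enzyme PAM (0.47). NPY was at 0.19 and was not called. Of the genes of synaptic vesicles and release, 10 of 24 were lower and 4 higher (median -0.097). SNAP25, of the fusion complex, was at 27.4, 29.6 and 26.5 against 49.9, 52.0 and 47.9 FPKM (-0.82), and RAB3A and RAB3B, small GTPases of the vesicle, were higher at 0.45 and 0.39.

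Neuronal differentiation genes were lower in 20 of 28 and higher in 1 (median -0.34), with smaller differences than the matrix genes. STMN2, a regulator of axonal microtubules, was at 338, 336 and 329 against 472, 480.1 and 469.6 FPKM (log2 difference -0.502, SE 0.0552, limma adjusted p = 4.11e-07). DCX, a microtubule protein of migrating neurons, and GAP43, a growth cone protein, were at -0.79 and -0.58, and the RNA-binding protein ELAVL4 at -0.49. The neurofilament genes were at -0.58 for INA, -0.39 for NEFL and -0.24 for NEFM, and NEFH (-0.086) was not called. DPYSL3 (0.14) was the higher member, and NCAM1 (0.081) was not called.

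Guidance cues and growth factor receptors differed in both directions. In the axon guidance list 13 of 29 were higher and 7 lower (median 0.14). NRP1, a co-receptor for semaphorins and VEGF, was at 7.08, 6.48 and 6.38 against 1.29, 1.14 and 1.299 FPKM (log2 difference 1.77, SE 0.0631, limma adjusted p = 3.05e-14), and its relative NRP2 at 1.07. The ligand EFNB2 and the netrin receptor UNC5C were lower, at -1.17 and -0.98. Among receptors of neuroblastoma growth factors 8 of 17 were higher and 3 lower (median 0.19). ALK, a receptor kinase often mutated in neuroblastoma, was at 12.6, 13.5 and 12.97 against 28.4, 28.1 and 29.6 FPKM (log2 difference -1.08, SE 0.102, limma adjusted p = 4.74e-08). EGFR, the nerve growth factor receptor NGFR and the neurturin receptor GFRA2 were higher, at 1.10, 0.84 and 1.06, while RET (0.07) was not called.

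In developmental signalling, Notch members were higher in 10 of 20 and lower in 3 (median 0.20). The receptors NOTCH1, NOTCH2 and NOTCH3 and the target HES1 were at 1.21, 0.70, 0.74 and 1.01. NOTCH1, NOTCH2, NOTCH3 and MAML2 are also counted in the mesenchymal identity list. The non-canonical ligand DLK1 was lower, at 15.6, 17.2 and 16.7 against 31.1, 28.8 and 27.1 FPKM (-0.77). Wnt signalling had 10 of 24 higher and 3 lower (median 0.094), with WNT5A at 1.10, the antagonist SFRP1 at 0.72 and the feedback target AXIN2 at -0.24. For the retinoic acid response it was 5 of 12 and 3 (median 0.14), with TGM2 at 1.37. The insulin-like growth factor axis had 8 of 12 higher and 2 lower (median 0.58). Its binding proteins were at 1.39 for IGFBP3, 1.23 for IGFBP5 and 0.99 for IGFBP4, and at -0.61 for IGFBPL1, which was lower at 52.2 ± 0.471 against 80.1 ± 2.73 FPKM. Among HOX genes, which hold the position along the body axis, 4 of 12 were higher and 1 lower (median 0.055). The higher ones were HOXD8, HOXD10, HOXD11 and HOXD13 (0.29, 0.83, 0.90 and 0.63), and HOXD3 was lower (-0.46).

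**Figure D4:**
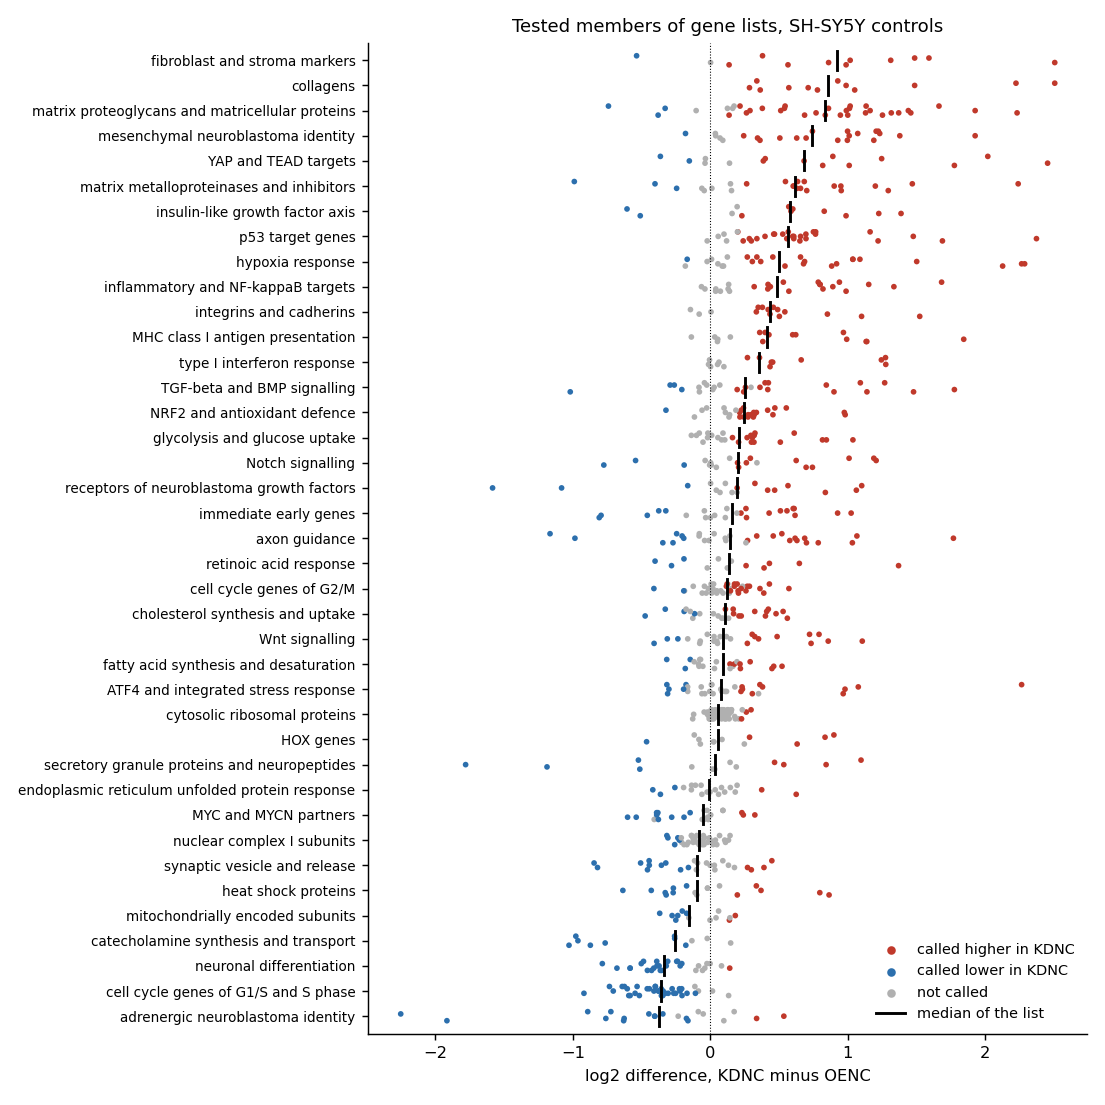
Log2 difference, KDNC minus OENC (x axis), of every tested member (points) of the gene lists (y axis, ordered by median), with members called higher in red, called lower in blue, not called in grey and the list's median as a black bar. Collagens have all 12 members on the higher side and G1/S and S phase genes 34 of 38 members called lower, while cytosolic ribosomal proteins lie near 0.

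Cell cycle genes differed by phase. Of genes of G1/S and S phase, 34 of 38 were lower in KDNC and 0 higher (median -0.36). MCM6 was at 23.6, 23.8 and 23.1 FPKM in KDNC and 43.96, 45.4 and 46.8 in OENC (log2 difference -0.92, SE 0.0381, limma adjusted p = 2.59e-13), and the other helicase subunits MCM2, MCM3, MCM4, MCM5 and MCM7 were at -0.52, -0.44, -0.40, -0.73 and -0.58. PCNA, the sliding clamp of DNA polymerase, was at -0.59. Of genes of G2/M, 16 of 38 were higher and 2 lower (median 0.12). CDC20, an activator of the anaphase-promoting complex, was at 40.2, 35.2 and 40.6 against 24.4, 27.9 and 24.8 FPKM (0.57), CDK1 was at 0.12, and the proliferation marker MKI67 (-0.015) was not called. In the SK-N-BE(2) controls the G2/M list was higher in 38 of 38 (median 0.51), and the G1/S list in 9 of 38 with 6 lower.

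The p53 targets were higher in 26 of 31 and lower in 0 (median 0.57). CDKN1A, the gene of the p21 brake on cyclin-dependent kinases, was at 51.01, 47.01 and 45.5 FPKM in KDNC and 16.2, 13.1 and 13.3 in OENC, a 3.37-fold higher mean (log2 difference 1.69, SE 0.131, limma adjusted p = 2.76e-09). PLK2 and BTG2, both growth-restraining, were at 1.48 and 1.16, and the ribonucleotide reductase subunit RRM2B at 1.22. The p53 inhibitor MDM2 and the cell death genes BAX and BBC3 were at 0.30, 0.47 and 0.75. MYC and MYCN with their partners and targets were lower in 9 of 22 and higher in 3 (median -0.052). MYC was at 8.93, 8.48 and 8.19 against 13.8, 12.8 and 13.8 FPKM (log2 difference -0.60, SE 0.0626, limma adjusted p = 1.88e-07). MYCN, low in this line, was at 2.26, 2.04 and 1.696 against 3.096, 2.86 and 2.73 FPKM (log2 difference -0.38, SE 0.116, limma adjusted p = 0.0133), and it was not called without KDNC replicate 3 (-0.31) or OENC replicate 1 (-0.35).

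Inflammatory and antigen presentation genes were higher in KDNC, most of them at low levels. Of inflammatory and NF-kappaB targets, 16 of 24 were higher and 0 lower (median 0.48). The adhesion molecule ICAM1 was at 7.71, 6.87 and 7.41 FPKM in KDNC and 1.67, 1.54 and 1.58 in OENC (log2 difference 1.68, SE 0.0745, limma adjusted p = 6.12e-13), VCAM1 was at 1.33, and the chemokines CCL5 and CXCL8 were at 1.15 and 0.94. The NF-kappaB subunits NFKB1 (0.039) and RELA (0.073) and the inhibitor NFKBIA (-0.039) were not called, while NFKB2 was at 0.80. MHC class I genes were higher in 11 of 16 and lower in 0 (median 0.41). HLA-E, a class I molecule read by natural killer cells, was at 11.6, 9.46 and 10.3 against 2.297, 2.44 and 1.82 FPKM (log2 difference 1.84, SE 0.103, limma adjusted p = 1.82e-11). The light chain B2M and the peptide transporter TAP1 were at 0.97 and 0.99, and HLA-B and HLA-C, whose reads are hard to assign between near-identical genes, at 1.14 and 1.13. Interferon response genes were higher in 9 of 15 and lower in 0 (median 0.36). BST2 and IFITM3, which block viral release and entry, were at 2.49 ± 0.572 and 2.43 ± 0.501 FPKM against 0.433 ± 0.136 and 0.413 ± 0.123, while the sensor DDX58 (0.063) and OAS3 (-0.006) were not called. Limited to a mean of 5 FPKM or more, the NF-kappaB, MHC and interferon lists had 3, 6 and 2 members called higher. Fewer members are tested at that filter, where 1257 of all genes were called higher and 1921 lower. How many were tested is not given here, so the counts are not shares.

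Stress pathways were split. Among ATF4 and integrated stress response genes 10 of 31 were higher and 5 lower (median 0.076). DDIT3, the factor CHOP, was at 8.97, 8.22 and 6.54 against 3.595, 2.899 and 3.13 FPKM (log2 difference 1.08, SE 0.137, limma adjusted p = 3.07e-06), and CEBPB and STC2 were at 0.98 and 0.97. ATF4 itself (-0.17), ASNS (0.076) and TRIB3 (-0.16) were not called. The unfolded protein response had 2 of 20 higher and 3 lower (median -0.013), with the chaperone HSPA5 at -0.36. Heat shock proteins had 5 of 17 higher and 7 lower (median -0.099), with BAG3 at 0.86 and DNAJA1 at -0.64. Immediate early genes had 11 of 24 higher and 5 lower (median 0.16). EGR1 and IER3 were at 0.93 and 1.02, while DUSP6 and SPRY2, feedback inhibitors of ERK signalling, were at -0.81 and -0.79. NRF2 and antioxidant genes were higher in 18 of 27 and lower in 1 (median 0.24), with the quinone reductase NQO1 at 6.72 ± 0.0696 against 2.91 ± 0.208 FPKM (0.98) and the ferritin chains FTH1 and FTL at 0.55 and 0.47.

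Hypoxia genes were higher in 18 of 26 and lower in 1 (median 0.50). BHLHE40, a transcriptional repressor, was at 7.37, 7.04 and 7.001 FPKM in KDNC and 0.606, 0.605 and 0.798 in OENC (log2 difference 2.29, SE 0.115, limma adjusted p = 3.72e-12). ADM, VEGFA and CA12, a vasodilator, an angiogenic factor and a carbonic anhydrase, were at 1.09, 0.68 and 1.501. The factors HIF1A (0.0088) and EPAS1 (0.086) and the targets SLC2A1 (0.055) and PDK1 (0.12) were not called. Glycolysis and glucose uptake had 14 of 25 higher and 0 lower (median 0.21). HK2, an inducible hexokinase, was at 30.2, 30.7 and 30.7 against 16.2, 16.5 and 17.1 FPKM (0.84), while GAPDH (-0.02), PKM (0.082) and LDHA (0.092) were not called. Cholesterol synthesis and uptake had 12 of 25 higher and 4 lower (median 0.11), with the sterol sensor partner INSIG1 at 0.53. Fatty acid synthesis and desaturation had 8 of 22 higher and 3 lower (median 0.093), with SCD at -0.32 and SCD5 at 0.46.

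Nuclear genes of complex I, with NDUFS6 set aside, were lower in 5 of 37 and higher in 0 (median -0.086). NDUFB9 was at 11.1, 12.1 and 11.6 against 14.2, 15.1 and 14.5 FPKM (log2 difference -0.31, SE 0.0731, limma adjusted p = 0.00213). The count rested on the spread used and on single libraries: 10 were lower and 2 higher when only the 6 libraries entered the fit, and 1 without OENC replicate 2. Of the 13 subunits encoded by mitochondrial DNA, 6 were lower and 2 higher (median -0.16), with MT-ND2 at 2219 ± 52.7 against 2864 ± 25.6 FPKM (-0.37) and MT-ND4 at 0.18. All mitochondrially encoded genes held 31.1 ± 0.303% of FPKM in KDNC and 30.3 ± 0.348% in OENC, a difference of 0.843 percentage points (exact permutation test, two-sided, p = 0.1, the smallest that 3 against 3 libraries allow). Over the 13 protein-coding genes alone the difference was -0.813 points. Cytosolic ribosomal proteins were higher in 3 of 70 and lower in 0 (median 0.057). In 46 of the 70 every KDNC library lay above every OENC library, and in 3 the reverse held. Over all 14073 genes these counts were 3802 and 4066. The calls of the ribosomal list were 34 higher and 2 lower when only the 6 libraries entered the fit, with differences of the same size. Replication-dependent histones had 0 of 5 called in either direction by limma.

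Markers of cells that a neuroblastoma culture should not hold were measured in the same libraries. The 15 fibroblast and stroma markers, some of them matrix genes already described, summed to 168.8 to 175.6 FPKM in KDNC and 83.22 to 86.9 in OENC, and 10 of the 12 tested were higher and 1 lower (median 0.92). TAGLN, an actin-binding protein of smooth muscle, was at 6.92, 6.77 and 7.61 against 1.77, 1.74 and 1.56 FPKM (1.59), ACTA2 was at 1.31 and the receptor PDGFRA, not called, at 0.0019. LUM, PDGFRB and THY1 had means of 5.89, 9.88 and 12.2 FPKM in KDNC and 2.41, 6.36 and 9.11 in OENC. DCN and COL1A2, which fibroblasts express strongly, did not pass the filter, with means of 0.226 and 0.47 FPKM in KDNC and 0.0967 and 0.305 in OENC. Of 14 immune markers 13 were under 1 FPKM in every library, and their sum was 2.284 to 2.918 in KDNC and 0.3919 to 1.035 in OENC. CD68, a lysosomal protein of macrophages, made up most of it, at 1.68, 1.68 and 2.32 against 0.03605, 0.0949 and 0.0824 FPKM (log2 difference 1.43, SE 0.0930, limma adjusted p = 1.87e-10), while the T cell gene CD3E was at 0 in all 6 and the leukocyte gene PTPRC at or under 0.04912. The 12 epithelial markers summed to 4.854 to 5.727 FPKM against 2.443 to 3.17, with KRT18 at 1.03 and KRT5 at 0 throughout. Endothelial markers summed to 6.255 to 7.099 against 4.037 to 5.613, with EGFL7 at 0.43 (limma adjusted p = 0.047, not called in 9 of the alternatives) and PECAM1 at or under 0.002669. Schwann cell markers summed to 36.27 to 38 against 38.65 to 41.37, with SOX10 at or under 0.0456. Most of that sum was L1CAM (mean 22.92 in KDNC against 29.78 in OENC), also in the neuronal differentiation list, and PMP22 (10.51 against 7.002). Of the 4 Schwann markers tested, 1 was called higher and 2 lower. In bulk RNA a different share of cells of one state and a different level per cell cannot be told apart, for these lists and for all others. The part of these markers in the results above was not tested.

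By position, chromosome medians ran from -0.056 (chromosome 16) to 0.026 (chromosome 4), with the mitochondrial genome at 0.032. In 268 runs of 50 neighbouring genes, medians lay between -0.177 and 0.16, and 0 lay beyond 0.2 in either direction. The same runs in the SK-N-BE(2) controls lay between -0.356 and 0.282, with 19 beyond 0.2. One neighbourhood was looked at after its values were seen, around RTL1 in the imprinted region of chromosome 14. There BEGAIN (100537147 to 100587413, hg38), DLK1 (100725705 to 100738224) and RTL1 (100879753 to 100903722) were at -1.05, -0.77 and -1.91, and DIO3 (101561351 to 101563452) was at 0.15 and was not called. BEGAIN stood at 7.49, 8.49 and 8.14 FPKM in KDNC and 18.3, 17.9 and 16.9 in OENC, again without overlap. Of the abundant 2-fold calls, FP236383.2, FP236383.3 and FP671120.3, near-identical non-coding genes of chromosome 21, each stood at -1.27. Their OENC values were spread, with 151, 411 and 139 FPKM for FP236383.3, and without OENC replicate 2 it was at -0.77 and not called.

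The 6 empty vector controls of SK-N-BE(2) give the same kind of comparison in another line. There 2301 genes were called higher in KDNC (16.4%) and 2731 lower (19.4%), of which 49 (0.348%) and 55 (0.391%) by at least 2-fold. The distance between a KDNC and an OENC library was 0.163 to 0.172, which overlaps the SH-SY5Y range. Mitochondrially encoded genes held 33.8 ± 0.224% of FPKM in KDNC of SK-N-BE(2) and 28.65 ± 0.499% in OENC. The difference was 5.15 percentage points (exact permutation test, two-sided, p = 0.1). Across the 14073 genes the differences of the 2 lines had a Pearson r of -0.046 and a Spearman rho of -0.017, where genes are not independent replicates and both lines share the pipeline. Tested directly, the SH-SY5Y difference exceeded that of SK-N-BE(2) in 2893 genes (20.6%) and lay below it in 2643 (18.8%), by at least 2-fold in 348 (2.47%) and 132 (0.938%). Of the 188 genes at least 2-fold higher in SH-SY5Y, 31 were called higher and 59 lower in SK-N-BE(2), and 82 were below the filter there. Of the 42 lower genes, 14 were called higher and 10 lower in SK-N-BE(2), and 4 were below the filter. For scale, 12224 of all 14073 genes passed the same filter in the SK-N-BE(2) controls.

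**Figure D5:**
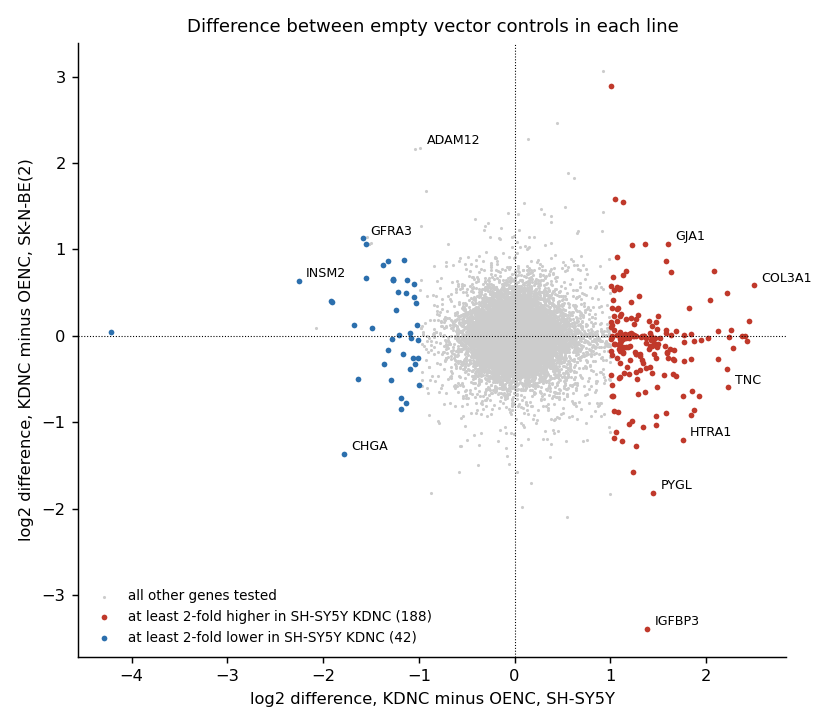
Log2 difference between the 2 empty vector controls, KDNC minus OENC, in SK-N-BE(2) (y axis) against that in SH-SY5Y (x axis), 1 point per gene tested. Red and blue points are the 188 genes at least 2-fold higher and the 42 at least 2-fold lower in SH-SY5Y KDNC, which lie on both sides of 0 on the y axis (31 called higher and 59 lower of the 188).

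Named genes show both patterns. CHGA was lower in KDNC in both lines (-1.78 and -1.36), as was DBH (-0.87 and -1.82), and in each the lines still differed (limma adjusted p = 0.0162 and 4.17e-07 for the difference between lines). YAP1 was higher in both (1.07 and 0.91), and there the difference between lines was not called (0.16, limma adjusted p = 0.171). INSM2, TFAP2B and GFRA3 were lower in KDNC of SH-SY5Y and higher in that of SK-N-BE(2) (0.63, 0.40 and 1.13). FN1, TNC and VIM went the other way in SK-N-BE(2), at -0.70, -0.60 and -0.38. Between the lists, the mesenchymal median was 0.74 in SH-SY5Y and -0.13 in SK-N-BE(2), the adrenergic -0.37 and -0.014, the collagen 0.85 and 0.036 and the p53 0.57 and -0.075. The neuronal differentiation median was -0.34 and -0.29, with 20 of 28 members lower in SH-SY5Y and 16 of 28 in SK-N-BE(2).

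The contrast of KD with OE libraries in SH-SY5Y shares no library with the control difference, and it was added after the data were seen. Between them 3927 genes were called higher in KD (27.9%) and 5104 lower (36.3%). Of the 188 genes at least 2-fold higher in KDNC, 172 (91.5%) were called higher in KD than in OE and 6 lower. Of the 42 genes lower in KDNC, 35 (83.3%) were called lower in KD than in OE and 1 higher. Across all 14073 genes the 2 differences had a Pearson r of 0.597 and a Spearman rho of 0.536, again across genes that are not independent replicates and that share the line and the pipeline. KD and OE differ in NDUFS6 level as well as in vector and infected line, and these cannot be told apart in this contrast. VIM, at 96.4 ± 2.77 FPKM in KDNC and 36.5 ± 0.939 in OENC, was 445 ± 10.1 in KD and 38.4 ± 0.7905 in OE. CHGA, at 64.98 ± 2.22 and 226 ± 7.699, was 12.4 ± 1.65 and 320.3 ± 17.7. For COL3A1 the KD and OE values were 157 ± 4.27 and 17.3 ± 0.806, and for CDKN1A 75.6 ± 9.45 and 7.69 ± 0.303. In these 4 genes OE lay on the side of OENC, and KD lay beyond KDNC. The order was not general: BHLHE40 was 1.67 ± 0.0873 in KD and 0.902 ± 0.174 in OE, far below its KDNC level. By list, KD against OE gave 18 of 23 mesenchymal genes higher, 15 of 20 adrenergic genes lower, 38 of 38 G1/S genes lower and 23 of 31 p53 targets higher. G2/M genes, higher in 16 of 38 between the controls, were lower in 37 of 38 between KD and OE, and hypoxia genes were higher in 11 of 26 and lower in 6.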

How the data were processed

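RNA sequencing of total RNA gave strand-specific TruSeq libraries read on an Illumina NovaSeq sequencer, per the labels' protocols. FastQC 0.11.2, STAR and StringTie 1.3.1c with the hg38 build are named in the submitters' processing notes, while no source used here states counting settings or the annotation release. The authors deposited FPKM per gene, with 60564 rows and 24 libraries.

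The 14073 genes that reached 1 FPKM in 3 or more of the 6 SH-SY5Y control libraries were tested as log2(FPKM + 1). In R 4.3.3, limma 3.58.1 fitted all 24 libraries as 8 groups (16 residual degrees of freedom) with trend and robust moderation. The script was tested on simulated data. No test was made for lists, which are given by counts and medians. Lists share members, among them FN1, NT5E, TGFB2, SMAD3, ID1 and the NOTCH receptors, so their counts are not independent. GENCODE release 29 (GRCh38) gave positions for 99.5% of tested genes, and RefSeq (GRCh38.p14) gave promoters. Python 3.11.15 was used for the rest.

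The comparison, the 44 gene lists and their members were chosen with earlier results of these data known. Named genes were NDUFS6, the 12 largest called differences per direction (higher group averaging 1 FPKM or more, no overlap), up to 4 called members per list by adjusted p, the 5 largest differences between lines per direction, the 5 most abundant 2-fold calls, MYCN, CDKN1A, VIM, TH, CHGA and NEFM, and the 3 most abundant markers of each other cell type. Other list members, such as CDK1, MKI67, HIF1A, RET and ATF4, and BEGAIN, DIO3 and FP671120.4 were named after their values were seen. Some genes that the rule names are not reported here. Alternatives were a pseudocount of 0.1, other filters, TPM and median of ratios scaling, fewer libraries in the fit, no moderation by trend, a replicate block and leaving out each control library.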

Additional observations from a re-analysis of the deposited data

Results flagged for a closer look

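The results below stand out because the difference between the empty vector controls was tested to differ between SH-SY5Y and SK-N-BE(2), and each value is the SH-SY5Y difference (KDNC minus OENC) minus that of SK-N-BE(2). Over all genes, limma called 2893 higher and 2643 lower. IGFBP3 had the largest value among the genes named, 4.78, since it was higher in KDNC of SH-SY5Y (8.87 ± 0.551 against 2.78 ± 0.336 FPKM) and lower in KDNC of SK-N-BE(2) (1.04 ± 0.0391 against 20.4 ± 0.7401 FPKM). The other large positive values were 3.26 for PYGL, the liver glycogen phosphorylase, 2.97 for the secreted protease HTRA1, 2.83 for TNC and 2.83 for the AP-1 factor FOSL2. The negative ones were -3.16 for ADAM12, -2.88 for INSM2, -2.71 for GFRA3, -2.62 for TMEM229A and -2.67 for RNA5-8SN1. For these genes other than RNA5-8SN1 the 3 KDNC and 3 OENC libraries of SH-SY5Y did not overlap. For TNC, INSM2, GFRA3 and TMEM229A, also among the largest differences named above, the rule of that choice required this. RNA5-8SN1, a ribosomal RNA gene with near-identical copies, stood at 6.18, 5.53 and 10.8 FPKM in KDNC and 19.03, 113 and 4.896 in OENC, which overlap, and its control difference in SH-SY5Y was not called (-1.54, limma adjusted p = 0.0771). Groups of 3 are too small for a test of single outlying libraries.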

How the results depend on the processing

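In SH-SY5Y, 187 of the 188 genes at least 2-fold higher and 36 of the 42 lower were called the same way in all 6 fits without 1 control library, as were 1936 of the 2700 called higher and 1874 of the 2785 called lower. Those fits gave 2323 to 2425 higher and 2263 to 2446 lower, 187 to 196 and 40 to 51 by at least 2-fold. In SK-N-BE(2) they gave 1870 to 2002, 2313 to 2409, 48 to 50 and 56 to 62, and between the lines 2648 to 2768, 2338 to 2546, 346 to 365 and 128 to 137. The difference in mitochondrial share ran from 0.658 to 1.005 points, and over the 13 protein-coding genes it turned to -0.813.

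A mean of at least 5 FPKM leaves fewer genes to test and gave 1257 higher and 59 at least 2-fold higher in SH-SY5Y, 1484, 1744, 21 and 25 in SK-N-BE(2), and 1515 higher with 120 and 74 at 2-fold between the lines. It took the library distance to 0.153 and the chromosome 16 median to -0.087. A pseudocount of 0.1 shrinks low genes less and gave 410 and 119 at least 2-fold genes in SH-SY5Y, 177 and 203 in SK-N-BE(2), 689 and 320 between the lines, and a distance of 0.212. TPM scaling gave 362 and 101 at 2-fold in SH-SY5Y and 1429, 4351, 98 and 187 in SK-N-BE(2). Between the lines it gave 1692 lower, with 721 and 208 at 2-fold. TPM brings each library to a sum of 1000000, where the SH-SY5Y controls summed to 255596 to 259548 FPKM. The pseudocount of the main test was kept, so low genes were shrunk less here too. How much of these 2-fold counts came from the scaling itself was not tested. Median of ratios scaling gave 177 and 38 at 2-fold in SH-SY5Y. The library sums that TPM divides by were 270842, 271668 and 272957 FPKM in KDNC of SK-N-BE(2) and 251295, 255827 and 250045 in OENC. TPM scaling moved the median of all genes in SK-N-BE(2) from -0.0089 to -0.109. The share of higher calls went there from 45.7% to 24.7%, and in SH-SY5Y from 49.2% to 50%. That share was 39.6% with a mean of at least 5 FPKM. Without a filter 83 genes were at least 2-fold lower in SK-N-BE(2).

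Replicate numbers are shared by the groups, but same-numbered SH-SY5Y libraries did not deviate together (correlations -0.0054, -0.069 and -0.012), so the number pairs nothing here. With the number as a replicate block, SH-SY5Y gave 2809 higher and 2952 lower, 188 and 43 at 2-fold, and with only the groups compared 2883, 3084, 187 and 38. Most named genes were chosen for a large difference or a small adjusted p in these same libraries, so their stability was largely set by the choice. Of 186 named genes, 183 were called and 169 of these kept their call under every alternative run, 0 reversed, and 61 of 2911 single comparisons lost it. Those that lost a call under some alternative included EGFL7, FBLN1, FP236383.2, FP236383.3, FP671120.3, FP671120.4, MYCN, NDUFA6, NDUFB2, NDUFS3, RN7SL1, RPL36A-HNRNPH2 and RPS12, and the cause was not tested. Of 1404 list counts under alternatives, 1279 were within 1.5 times the count reported. With FPKM alone, depth and the counting error of low genes are unknown, so values near or under 1 FPKM carry the least precision.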
